A study of Mus musculus with 16 samples.

Results

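The caudal region of mouse embryos that lack endothelin receptor B (Ednrb-/-) was compared with the same region of embryos with a normal gene (Ednrb+/+, called WT here) at embryonic stage E11.5. Each genotype had 4 caudal libraries, so 8 of the 16 libraries of the series enter the comparison. The other 8 libraries come from the trunk region of the same 2 genotypes and serve here to show where the caudal difference departs from that of the trunk. Genes were tested if they reached 0.5 FPKM (reads corrected for the gene's length and the library total) in at least 4 of the 16 libraries, which kept 17205 of the 56748 genes listed. The tissue was a dissected body region with all its cell types, read as bulk RNA. The sources used here do not give the alleles behind the null genotype, the strain, the position of the cut or the litters, and they label the libraries as biological replicates.

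Endothelin receptor B is a G-protein-coupled receptor for endothelins, and endothelin 3 is the ligand it meets in the embryonic skin and gut. Melanoblasts, the migrating precursors of pigment cells, need it, as does the vagal neural crest that colonizes the gut. At this stage the caudal region holds the hindlimb buds, the tail with its axial progenitors, the hindgut, the urogenital ridge and the youngest part of the spinal cord and somites. Development runs from head to tail, so posterior tissue is younger than anterior tissue of the same embryo.

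Depth was even, with 35579221 to 37251226 reads in listed genes per caudal library. Ednrb (ENSMUSG00000022122, chromosome 14 from 104052061 to 104081838 on the minus strand, mm39) stood at 1.77, 2.55, 3.44 and 1.59 FPKM in Ednrb-/- replicates 1 to 4 and at 32.2, 26.2, 30.3 and 33.5 FPKM in WT replicates 1 to 4, the order used for all values below. Defining genes of the posterior body were present in every library: Hoxd13 was at 24.8 ± 3 FPKM (mean ± SD, n = 4) in Ednrb-/- and 17.2 ± 2.8 FPKM in WT caudal tissue, against at most 0.129 FPKM on average in either trunk group. Summed over 9 liver markers the level was at most 1.46 FPKM in any caudal library, and 8 brain and eye markers summed to at most 1.26 FPKM. All 4 Ednrb-/- caudal libraries held Y-linked RNA and only 1 WT caudal library, replicate 1, had high Xist (156 FPKM) with low Ddx3y (0.903 FPKM). Ednrb-/- replicate 3 and WT replicate 2 held Ddx3y together with some Xist (5.72 and 9.18 FPKM).

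Of the genes tested, 3732 were higher in Ednrb-/- caudal tissue (21.7%) and 3432 were lower (19.9%) at a Benjamini-Hochberg adjusted p under 0.05 with limma, so 41.6% of all genes were called. Most differences were small: 77 genes rose at least 2-fold (0.448%) and 344 fell at least 2-fold (2.0%) on the log2(FPKM + 0.5) scale, which understates the change of low genes. The 4 Ednrb-/- and 4 WT values did not overlap for 6418 genes (37.3%). These shares are the background against which the counts in each gene group below are read. They are not matched for level. In the highest of 5 level classes of protein-coding genes 50.3% rose and 12.2% fell, which is the nearer background for lists of abundant genes. With TPM scaling the split was 2219 higher and 5017 lower, with the median of all genes at -0.08 against 0.01. With log2 Ddx3y as a covariate 3645 genes were higher and 3366 lower, and without the 7 libraries with Xist at 5 FPKM or more 2180 and 2150 were. In bulk tissue fewer cells of a type and less RNA per cell cannot be told apart, for any gene group below.

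Rises and falls were spread unevenly over level and length. Among 13365 protein-coding genes, cut into 5 equal classes by mean level, those of the lowest class rose in 7.89% of cases and fell in 31.2%. In the highest class 50.3% rose and 12.2% fell. Short genes rose more often than long ones: 28.6% of the shortest of 5 classes rose and 16.3% fell, while 18.8% of the longest class rose and 31.6% fell. Processed pseudogenes, which are often copies of abundant messengers and so open to shared reads, rose for 216 of 1134 and fell for 30. These shares were 19.05% and 2.65%, against 21.7% and 19.9% of all genes tested. Rises were thus near the background, and falls were fewer. The 8 genes with the largest gain in FPKM were Eef1a1, Ptma, Rps3a1, Hsp90ab1, Rplp1, Mdk, Npm1 and Rps2, which serve translation, chaperoning and growth. The 8 with the largest loss were Fabp7, Tubb3, Cdkn1c, Tuba1a, Tubb2b, Nrep, Nnat and Tmsb10, most of them abundant in differentiating neurons or glia. Of these 16, Eef1a1 and Tmsb10 lost their calls in several alternative fits and Ptma with quantile normalization.

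**Figure D1:**
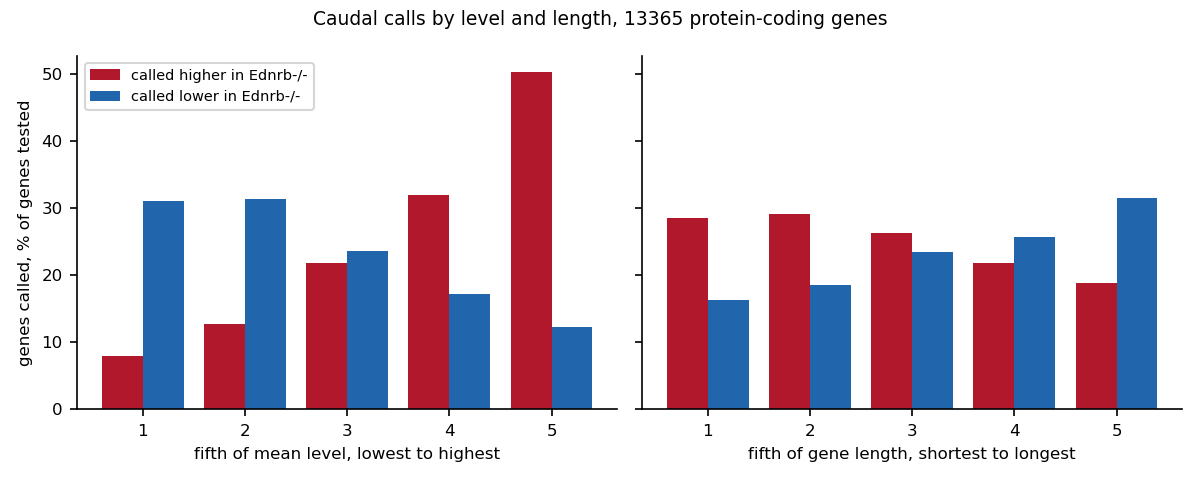
Share of protein-coding genes called higher (red) or lower (blue) in Ednrb-/- caudal tissue, in percent of the genes tested, by class of mean level over all libraries (left) and of gene length (right), with 5 equal classes each. The share called higher climbs from 7.89% to 50.3% with level, while the share called lower falls from 31.2% to 12.2%.

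The gene lists ranged from complete falls to complete rises. At the lower end stood pan-neuronal genes (22 of 22 lower), sclerotome and cartilage genes (15 of 16) and sarcomere genes (15 of 17). At the upper end stood DNA replication genes (23 of 23 higher), early-stage heterochronic genes (12 of 12), ribosome assembly genes (18 of 19) and cytosolic ribosomal proteins (72 of 79). Counts are over the members that passed the filter on low values. Lists were chosen with earlier results of these data known, so their counts describe the members and nothing particular to a list is drawn from them.

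**Figure D2:**
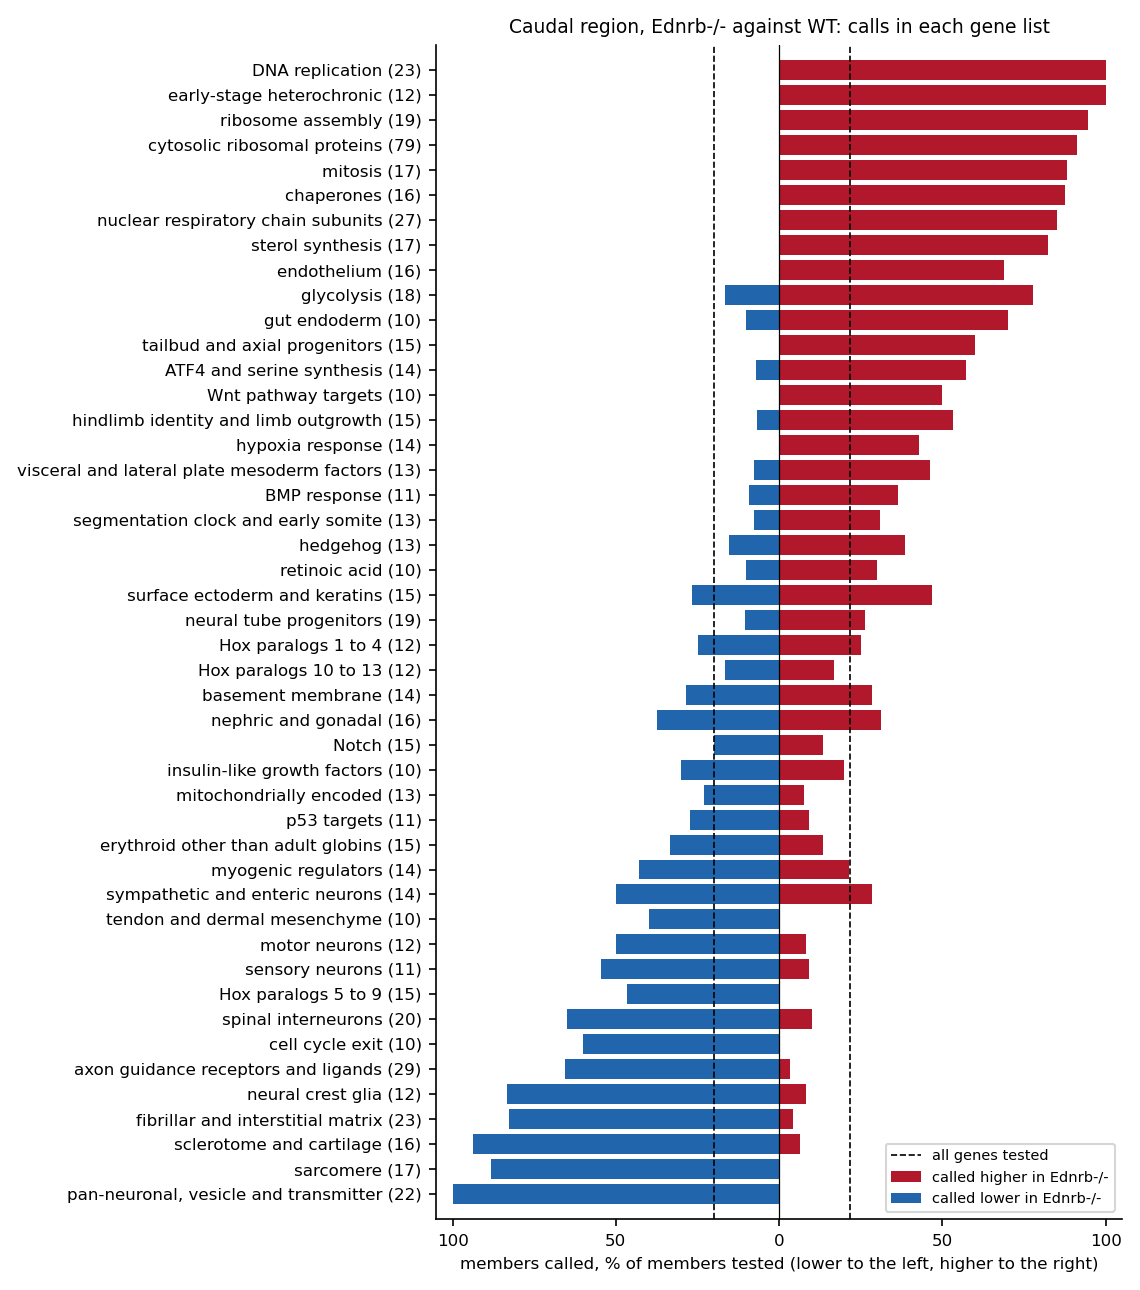
Members of each gene list called higher (red, to the right) or lower (blue, to the left) in Ednrb-/- caudal tissue, in percent of the members tested, whose number follows each name. Dashed lines mark the shares over all genes tested, 21.7% higher and 19.9% lower, which are not matched for level. Lists with at least 10 tested members are drawn.

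Neuronal genes fell together. All 22 pan-neuronal, vesicle and transmitter genes were lower, with a median log2 difference of -1.17 against 0.01 over all genes tested. Slc17a6 (ENSMUSG00000030500, chromosome 7 from 51271754 to 51320867 on the plus strand, mm39), the vesicular glutamate transporter of excitatory neurons, was at 0.377, 0.0734, 0.581 and 0.0851 FPKM in Ednrb-/- and 4.63, 3.12, 4.23 and 5.61 FPKM in WT libraries. The lowest WT value lay more than 5 times above the highest Ednrb-/- value, and the gene fell by 2.68 ± 0.23 on the log2 scale (SE; limma adjusted p = 2.6e-06). Stmn2, a microtubule regulator of growing axons, was at 14.4, 8.26, 17.1 and 9.66 against 37.5, 28.8, 39.8 and 37.2 FPKM. It fell by 1.54 ± 0.18 (adjusted p = 1.4e-05) with no overlap. Gap43, a growth cone protein, fell by 1.16 ± 0.10 from values of 82.1, 81, 89.3 and 87.3 FPKM in WT to 41.2, 30.0, 47.5 and 34.4 FPKM. Vstm2l fell by 2.31 and Tubb3, the neuronal beta tubulin, by 1.06. Among the Ednrb-/- libraries replicates 2 and 4 were lower than replicates 1 and 3 for Slc17a6, Stmn2 and Gap43, and WT replicate 2 was the lowest WT library for all 3.

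Spinal interneuron genes, mostly transcription factors, fell for 13 of 20 and rose for 2. Robo3 (ENSMUSG00000032128, chromosome 9 from 37326965 to 37344542 on the minus strand, mm39), a receptor by which commissural axons cross the floor plate, was at 3.55, 1.91, 4.21 and 2.44 against 14.9, 13.5, 17.5 and 15.8 FPKM. It fell by 2.22 ± 0.17 (adjusted p = 1.4e-06), and the lowest WT library lay more than 3-fold above the highest Ednrb-/- library. Tlx3, a factor of dorsal excitatory interneurons, fell by 1.36 ± 0.17, and Lhx1, a factor of several dorsal and ventral classes, fell by 1.21 ± 0.17. Otp, a homeobox factor of hypothalamic and spinal neurons that is not in the list, fell by 1.93 ± 0.19. The 2 list members that rose were Evx1 (0.73), which is also expressed in the tail bud, and Gata3 (0.65), which several tissues use.

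Motor neuron genes fell in part. Of 12, 6 fell and 1 rose. Slc5a7, the choline transporter of cholinergic neurons, was at 0.279, 0.351, 0.263 and 0.28 against 1.24, 1.15, 1.39 and 1.17 FPKM and fell by 1.13 ± 0.10 (adjusted p = 3.3e-06). Chat, which makes acetylcholine, fell by 0.50 and Prph, a neurofilament of motor and sensory axons, by 2.06. Olig2, which marks the progenitors of motor neurons, went the other way, from 0.954, 1.33, 1.43 and 0.902 FPKM in WT to 3.88, 9.1, 3.84 and 5.25 FPKM in Ednrb-/- (1.80 ± 0.22, adjusted p = 2.5e-05). Every Ednrb-/- library exceeded every WT library, and replicate 2 stood highest. Of 19 neural tube progenitor factors 5 rose (3 with TPM scaling and 1 without the libraries that held Xist) and 2 fell, and 5 of 19 is near the background share. Pax7 (log2 -0.42), of dorsal progenitors, was among those that fell.

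More peripheral neuron genes fell than rose, though members went both ways. Sensory neuron genes fell for 6 of 11 and rose for 1. Ntrk3, the neurotrophin-3 receptor of proprioceptive neurons, was at 0.67, 0.437, 0.693 and 0.534 against 2.03, 1.4, 1.6 and 1.95 FPKM and fell by 1.05 ± 0.11 (adjusted p = 9.3e-06). Runx3, which specifies these neurons, was at 0.0163, 0.0113, 0.0224 and 0.0688 against 0.792, 0.47, 0.787 and 0.896 FPKM, near 0 in every Ednrb-/- library. Of 14 sympathetic and enteric genes 7 fell and 4 rose. Dbh, the noradrenaline-making enzyme, was at 0.182, 0.042, 0.416 and 0.149 against 3.83, 2.55, 0.721 and 2.87 FPKM and fell by 1.99 ± 0.30 (adjusted p = 0.0001); WT replicate 3, at 0.721 FPKM, was the lowest WT library. Gfra1, the GDNF co-receptor of enteric progenitors, fell by 0.83 ± 0.08, from 12.6, 10.7, 12 and 13.5 FPKM to 6.59, 6.38, 7.31 and 6.2 FPKM. The members that rose were Th, Gata3, Hand2 and Gdnf, of which 1 was called without the libraries that held Xist.

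Axon guidance genes fell for 19 of 29 and rose for 1. Epha3, an ephrin receptor of motor and medial spinal axons, was at 9.35, 5.6, 10.6 and 7.3 against 19.3, 18.8, 19.6 and 21.3 FPKM and fell by 1.25 ± 0.13 (adjusted p = 7.9e-06). Plxna4, a semaphorin co-receptor, fell by 1.13 ± 0.13, and Plxna3 by 0.54 ± 0.05. Dcc, a netrin receptor, was at -1.12. The ligands Slit2 (-0.22) and Sema3a (-0.27), which also passed, were nearer to 0. Unc5a, another netrin receptor, was the member that rose (0.48).

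**Figure D3:**
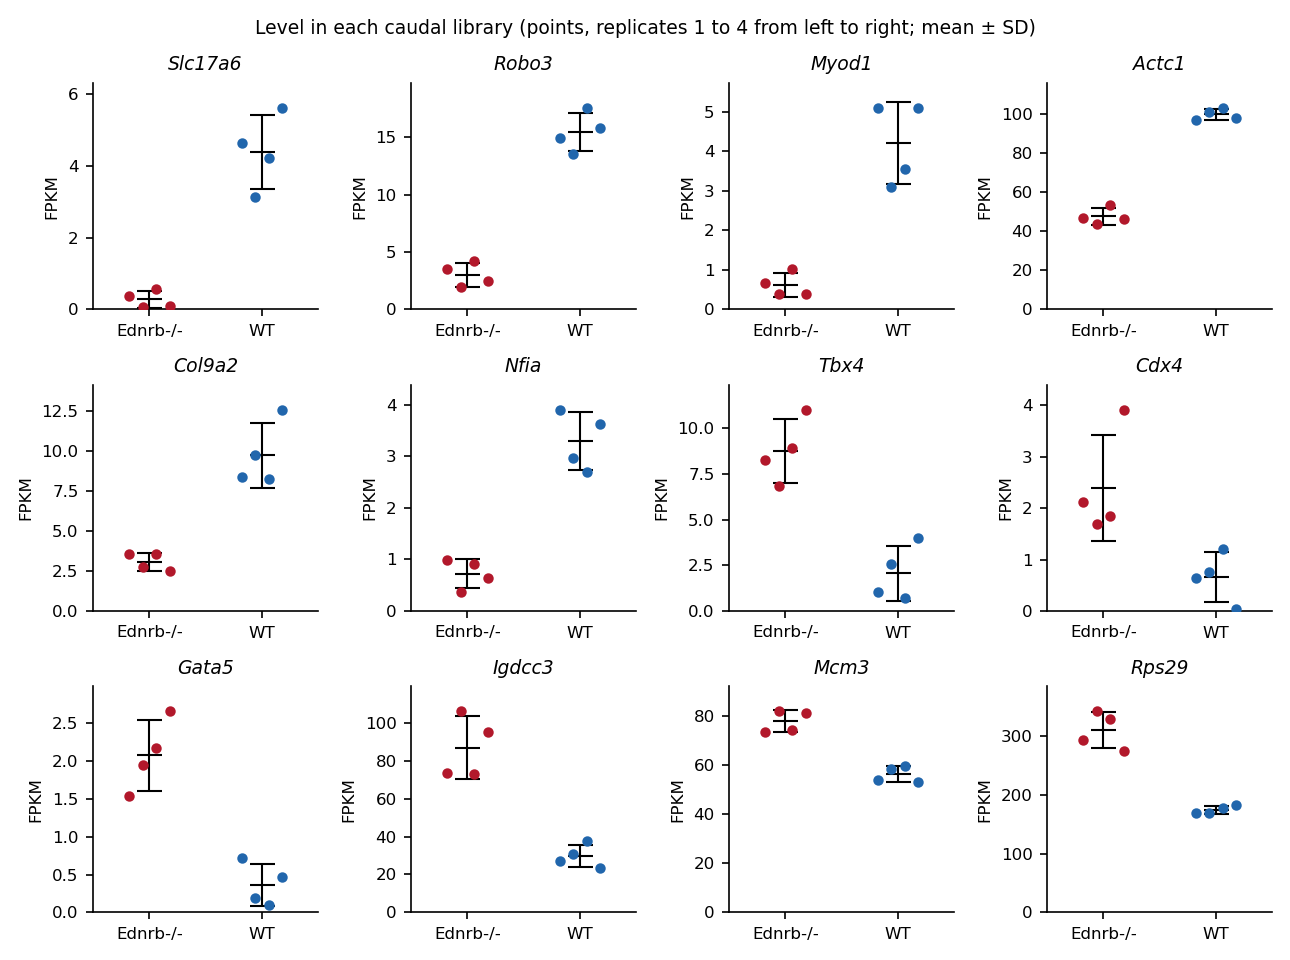
FPKM of 12 genes in each caudal library, with Ednrb-/- in red, WT in blue, points from left to right for replicates 1 to 4, and black marks for the mean ± SD (n = 4). The 2 groups do not overlap in any panel; Slc17a6, Robo3, Myod1, Actc1, Col9a2 and Nfia are lower in Ednrb-/-, and Tbx4, Cdx4, Gata5, Igdcc3, Mcm3 and Rps29 are higher.

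Skeletal muscle genes fell too. Of 14 myogenic regulators 6 fell and 3 rose. Myod1 (ENSMUSG00000009471, chromosome 7 from 46025898 to 46028523 on the plus strand, mm39), the factor that commits cells to muscle, was at 0.671, 0.395, 1.02 and 0.401 against 5.09, 3.1, 3.55 and 5.08 FPKM. It fell by 2.08 ± 0.19 (adjusted p = 3.5e-06), with the lowest WT library 3-fold above the highest Ednrb-/- library. Myog, which drives terminal differentiation, was at 13.7, 11.6, 16.7 and 12.4 against 27.3, 29.7, 31.1 and 28.5 FPKM and fell by 1.08 ± 0.10. Mymk, needed for myoblast fusion, fell by 0.95, and Mef2c by 0.79. Earlier members were mixed: Pax7, named above among the neural progenitor factors, fell, and Pax3, Myf5, Myf6 and Eya2 did not pass. The rises of Met, Six4 and Eya1 were 0.34 or less. Without Ednrb-/- replicate 2 or 4, or WT replicate 1 or 4, only 1 of these 3 rises was called.

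Sarcomere genes, the contractile end of the programme, fell for 15 of 17, with a median of -1.02. Actc1, the cardiac alpha actin that embryonic skeletal muscle also uses, was at 46.6, 43.8, 53.5 and 46.1 against 96.9, 101, 103 and 97.9 FPKM and fell by 1.06 ± 0.07 (adjusted p = 3.7e-07). Myh3, the embryonic myosin heavy chain, was at 12, 8.61, 15.6 and 11.6 against 30.1, 30.9, 31 and 34 FPKM and fell by 1.39 ± 0.11. Tnnt1, the slow troponin T, fell by 1.93 ± 0.17, and Tnnc1, troponin C, by 1.37 ± 0.11. Ednrb-/- replicate 3 had the highest and replicate 2 the lowest level among the knockout libraries for Actc1, Myh3, Tnnt1 and Tnnc1. Smooth muscle genes did not pass. Acta2, the smooth muscle actin, was at -0.01 ± 0.09, and the summed level of the list was 33.7 to 46.1 FPKM in Ednrb-/- and 34.6 to 41.7 FPKM in WT.

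The promoters of 2 sarcomere genes are shown because these genes fell together and are known targets of muscle factors. Each sequence is the 250 bases before the gene start, 5′ to 3′ on the gene's strand, from RefSeq on GRCm38.p6, at chr1:134193198-134193447 (plus strand) for Mybph and chr2:114052876-114053125 (minus strand) for Actc1. Capitals mark an E-box, CAGCTG, in Mybph and a CArG box, the serum response factor motif, in Actc1.
Mybph: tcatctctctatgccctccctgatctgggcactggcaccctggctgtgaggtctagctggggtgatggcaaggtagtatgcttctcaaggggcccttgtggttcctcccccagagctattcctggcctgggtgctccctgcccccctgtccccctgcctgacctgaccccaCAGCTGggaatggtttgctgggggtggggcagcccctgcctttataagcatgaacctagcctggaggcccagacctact
Actc1: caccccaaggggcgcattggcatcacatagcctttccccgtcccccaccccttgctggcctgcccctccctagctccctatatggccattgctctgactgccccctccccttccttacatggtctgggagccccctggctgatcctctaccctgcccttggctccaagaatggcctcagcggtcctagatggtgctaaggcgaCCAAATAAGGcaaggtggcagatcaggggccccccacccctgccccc
The E-box, which reads the same on both strands, was found in 6 of the 14 sarcomere genes that had a promoter entry, and in 14.7% of all 27025 genes with one. The CArG box was found in 2 of 14 sarcomere genes and 1.62% of all genes. Such a match is a description of the letters and shows no binding. Mybph itself, a myosin-binding protein of fast muscle, was at 1.96, 1.87, 2.27 and 2.18 against 4.83, 5.32, 5.23 and 4.34 FPKM and fell by 1.08 ± 0.09 (adjusted p = 2.1e-06).

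Skeletal precursors and connective tissue fell as broadly. Sclerotome and cartilage genes were lower for 15 of 16. Pax1, which marks the ventral sclerotome, was at 13.6, 12.8, 14.5 and 13.5 against 22.1, 23, 24.7 and 18.5 FPKM and fell by 0.67 ± 0.08 (adjusted p = 1.3e-05). Col9a2 and Col9a3, chains of a cartilage collagen, fell by 1.51 ± 0.14 and 1.59 ± 0.22. Col9a2 was at 3.57, 2.72, 3.53 and 2.49 against 8.34, 9.74, 8.21 and 12.6 FPKM, and WT replicate 4 was highest. Hapln1, a hyaluronan link protein, was the member that rose (0.66).

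Of 23 fibrillar and interstitial matrix genes 19 fell and 1 rose, with a median of -0.87. Col6a3, a chain of microfibrillar collagen VI, was at 1.06, 0.494, 1.1 and 0.621 against 4.06, 3.98, 3.35 and 4.73 FPKM and fell by 1.80 ± 0.16 (adjusted p = 3.3e-06). Col12a1 and Col14a1, collagens on the surface of fibrils, fell by 1.71 ± 0.22 and 1.08 ± 0.11. Fibronectin, Fn1, which is laid down early, rose by 0.26, and no member rose with TPM scaling, quantile normalization, the listed reads as total or voom. Basement membrane genes had no common direction, with 4 higher and 4 lower of 14. The laminin chains divided: Lama1 (0.37) and Lama5 (0.50), of early epithelia, rose, while Lama2 (-1.02), of muscle, fell from 2.37, 2.3, 2.03 and 2.67 to 1.1, 0.675, 1.05 and 0.811 FPKM. In the tendon and dermis list 4 of 10 fell, Egfl6 by 1.08 and Mkx by 0.64.

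In the glial list 10 of 12 members fell and 1 rose. Fabp7, a fatty acid binding protein of glial precursors, was at 41.2, 25.6, 50.3 and 29.4 against 93.1, 88.2, 114 and 98.9 FPKM and fell by 1.46 ± 0.16 (adjusted p = 1.2e-05). Erbb3, the neuregulin receptor of Schwann cell precursors, fell by 0.70 ± 0.06 from 9.31, 9.07, 9.22 and 9.92 to 5.41, 6.12, 5.57 and 5.32 FPKM. Of 12 melanoblast genes 6 passed the filter on low values and 4 of these fell. Gpnmb reached 0.5 FPKM only in the 4 WT caudal libraries, and Dct only in WT libraries. The filter thus admitted both through the genotype where they are high, and the count carries no weight of its own. Gpnmb, a melanosome glycoprotein, was at 0.0208, 0.0304, 0.12 and 0.0176 against 0.766, 0.836, 0.927 and 0.959 FPKM, near 0 in all 4 Ednrb-/- libraries. Mitf, the lineage's master factor, kept 0.797, 0.607, 0.787 and 0.769 FPKM against 1.2, 1.21, 1.34 and 1.31 FPKM and fell by 0.51 ± 0.09; it is also used outside pigment cells.

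Several genes that mark the posterior and ventral body rose. Tbx4 (ENSMUSG00000000094, chromosome 11 from 85777248 to 85806923 on the plus strand, mm39), which specifies the hindlimb, was at 8.26, 6.82, 8.95 and 11 against 1.06, 2.55, 0.683 and 3.99 FPKM. It rose by 2.03 ± 0.34 (adjusted p = 0.00028), though the WT libraries differed by more than 5-fold among themselves. In the hindlimb and limb outgrowth list 8 of 15 rose and 1 fell. The count of rises was 5 with TPM scaling, 5 without Ednrb-/- replicate 4, and 4 without the 7 libraries (3 of them caudal) that held Xist. Shh, the secreted organizer of limb, notochord, floor plate and gut, was at 9.94, 13, 10.7 and 11.2 against 5.61, 6.3, 6.4 and 5.95 FPKM and rose by 0.83 ± 0.11 (adjusted p = 4.2e-05) without overlap. Msx1, a factor of limb mesenchyme, rose by 0.55 ± 0.13. Grem1, a BMP antagonist of the later limb bud, fell by 0.34 ± 0.08.

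Visceral and lateral plate mesoderm factors rose for 6 of 13 and fell for 1. Gata5 was at 1.53, 1.94, 2.16 and 2.65 against 0.712, 0.192, 0.1 and 0.464 FPKM and rose by 1.61 ± 0.23 (adjusted p = 8.5e-05). Gata6 was at 1.65, 1.78, 2.24 and 1.75 against 0.717, 0.366, 0.105 and 0.576 FPKM and rose by 1.37 ± 0.24. Wnt2, a ligand of visceral mesoderm, rose by 1.57 ± 0.20 from 1.24, 1.21, 0.667 and 1.47 to 4.41, 3.46, 5.08 and 4.44 FPKM. WT replicate 3 was lowest for all of these, and the list's summed level there was 24.0 FPKM against 45.4 to 53.3 in the other WT libraries and 55.6 to 61.7 in Ednrb-/-. Whether the cut in that embryo held less of this tissue was not tested. Without the libraries that held Xist, 3 members rose.

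Tail bud and axial progenitor genes, which feed growth of the axis, rose for 9 of 15 and fell for 0. Cdx4, a factor of posterior progenitors, was at 2.13, 1.7, 1.84 and 3.92 against 0.649, 0.752, 1.2 and 0.0277 FPKM and rose by 1.38 ± 0.28 (adjusted p = 0.001). Nkx1-2, a mark of the neuromesodermal progenitor zone, was at 0.998, 1.5, 0.97 and 1.48 against 0.507, 0.243, 0.444 and 0.399 FPKM and rose by 0.94 ± 0.13 (adjusted p = 5e-05). Greb1 rose by 0.67 ± 0.08. The summed level of the list was 70.5 to 104 FPKM in Ednrb-/- and 45.4 to 73.5 FPKM in WT, so the groups overlapped, and WT replicate 4 had almost no Cdx4. Segmentation genes mostly did not pass, with 4 of 13 higher and 1 lower, or 2 higher without Ednrb-/- replicate 2 or 4. Ripply1, which ends the clock's activity as a somite forms, rose by 1.04 ± 0.18 from 0.502, 0.472, 0.741 and 0.201 to 1.54, 1.78, 0.933 and 1.77 FPKM.

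Hox genes, whose order along the chromosome follows the body axis, changed in both directions. The most posterior members divided by cluster: Hoxa13 rose by 0.52 ± 0.12, while Hoxc12 and Hoxc13 fell. Hoxc12 was at 13.6, 10.9, 10.6 and 11.2 against 20.9, 28.3, 30.4 and 17.9 FPKM (log2 -1.02 ± 0.13, adjusted p = 2.8e-05), and Hoxc13 fell by 1.02 ± 0.18. WT replicates 2 and 3 were high for both, and replicates 1 and 4 lower. Of paralogs 5 to 9, 7 of 15 fell and 0 rose, with Hoxb9 at -0.42 and Hoxa5 at -0.33; the count was 4 without WT replicate 3 or 4. Paralogs 1 to 4 had 3 of 12 higher and 3 lower, and 2 higher and 5 lower with TPM scaling. Of paralogs 10 to 13, 2 of 12 were higher and 2 lower, and 5 were lower with the caudal libraries fitted alone or with voom. Over all genes tested 21.7% rose and 19.9% fell. The main counts of paralogs 1 to 4 and 10 to 13 are near these shares. Hoxb1, which is expressed early and in the tail, rose by 0.58 ± 0.11.

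Many genes of epithelia and vessels rose. Gut endoderm and epithelial junction genes were higher for 7 of 10. Cldn6, a claudin of embryonic epithelia, was at 15.1, 18.1, 12.9 and 16.6 against 6.29, 6.83, 6.72 and 4.96 FPKM and rose by 1.27 ± 0.14 (adjusted p = 1.3e-05). Epcam, an adhesion molecule of epithelia, rose by 0.74 ± 0.10. In the surface ectoderm and keratin list 7 of 15 rose and 4 fell. Keratins known from simple layers rose (Krt18 by 1.30, Krt8 by 1.05 and Krt19 by 0.74), and Krt5 (-0.96), Krt14 (-1.45) and Krt15 (-1.40), known from stratifying skin, fell. Krt18 was at 16.7, 17.6, 15.2 and 18 against 7.23, 6.59, 6.49 and 5.88 FPKM. Krt15 was at 2.07, 1.06, 1.84 and 1.71 against 4.39, 5.85, 4.72 and 5.75 FPKM. Endothelial genes rose for 11 of 16 and fell for 0, by small amounts: Egfl7 by 0.49 ± 0.06, Plvap by 0.44 ± 0.08 and Kdr by 0.25 ± 0.04. With TPM scaling, the listed reads as total or voom, 8 rose and 1 fell.

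Blood and immune genes went down in part. Macrophage markers fell for 12 of 14 and rose for 0, with a summed level of 32.4 to 50.4 FPKM in Ednrb-/- and 56.7 to 69.9 FPKM in WT. S100a9, a neutrophil protein, was at 0.572, 0, 0.322 and 0.55 against 5.2, 2.04, 4.19 and 3.8 FPKM and fell by 2.33 ± 0.29 (adjusted p = 2.5e-05). Hbb-bh1, an early embryonic globin, rose by 0.82 ± 0.12, from 621, 600.5, 626 and 653 FPKM to 1319.5, 927, 1261 and 958 FPKM. Hbb-y, another embryonic globin, was at 3206, 1876, 2891 and 2048 against 3984, 3674, 3261 and 3845 FPKM and fell by 0.59 ± 0.14 (adjusted p = 0.0038), a call lost without the libraries that held Xist. Tfrc, the transferrin receptor of dividing cells and erythroblasts, rose by 0.41 ± 0.05. In the erythroid list as a whole 2 of 15 rose and 5 fell, and leaving out Ednrb-/- replicate 2 or 4 or WT replicate 1 or 4 left 3 falls, and leaving out the libraries that held Xist left 0. Arg1 (ENSMUSG00000019987, chromosome 10 from 24791119 to 24803382 on the minus strand, mm39), arginase 1, was at 31.1, 41.7, 31.9 and 35.2 against 8.49, 8.04, 8.92 and 6.75 FPKM and rose by 2.05 ± 0.17 on the log2 scale (adjusted p = 2e-06).

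Genes known to mark developmental stage in many tissues were called in both directions. All 12 early-stage heterochronic genes rose, with a median of 0.64 and no overlap between groups for any. Igdcc3 and Prtg, immunoglobulin-family receptors that fade as tissue matures, were at 73.4, 106, 73 and 94.9 against 27.1, 30.8, 37.6 and 23.6 FPKM and 8, 11.7, 7.6 and 9.87 against 3.11, 3.26, 3.31 and 2.52 FPKM. Their log2 differences were 1.53 ± 0.19 (adjusted p = 2.6e-05) and 1.45 ± 0.13 (adjusted p = 3.3e-06). Mycn rose by 0.54 ± 0.06, and Sall4, a factor of early progenitors and germ cells, by 0.93 ± 0.17. Late-onset factors were lower for 5 of 8 and higher for 1. Nfia, a nuclear factor that appears as glia and muscle mature, was at 0.982, 0.364, 0.913 and 0.633 against 3.91, 2.96, 2.7 and 3.63 FPKM and fell by 1.65 ± 0.15 (adjusted p = 3.3e-06). Nfib and Nfic fell by 0.86 and 0.74, and Zbtb16 rose by 0.66 ± 0.10.

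Proliferation genes rose by small, even amounts. All 23 DNA replication genes were higher, without overlap, by 0.18 to 0.57 with a median of 0.44. Mcm7, a subunit of the replicative helicase, was at 96.2, 110.3, 91.8 and 107 against 66.1, 74.5, 73.7 and 65.1 FPKM and rose by 0.53 ± 0.06 (adjusted p = 1.8e-05). Mcm3, another subunit, rose by 0.47 ± 0.05 and Rrm1, of the enzyme that makes deoxynucleotides, by 0.41 ± 0.05. Mitosis genes rose for 15 of 17, such as Cdc20 (0.46) and Cdk1 (0.39). Of 10 genes of cell cycle exit 6 fell and 0 rose. Cdkn1c, the inhibitor p57, was at 112, 101, 125 and 105 against 180.4, 173, 174 and 193 FPKM and fell by 0.70 ± 0.07 (adjusted p = 3.5e-06). Cdkn1b, the inhibitor p27, fell by 0.33 ± 0.06. E2F factors, which switch on replication genes, rose for 8 of the 10 tested and fell for 0.

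The promoters of 2 replication genes are shown because the whole group rose and E2F factors are known to act on it. The 250 bases before the gene start are given 5′ to 3′ on the gene's strand, from RefSeq on GRCm38.p6, at chr5:138171884-138172133 (minus strand) for Mcm7 and chr1:128359706-128359955 (minus strand) for Mcm6, another helicase subunit. Capitals mark matches to TTTCCCGC or TTTGGCGC on either strand.
Mcm7: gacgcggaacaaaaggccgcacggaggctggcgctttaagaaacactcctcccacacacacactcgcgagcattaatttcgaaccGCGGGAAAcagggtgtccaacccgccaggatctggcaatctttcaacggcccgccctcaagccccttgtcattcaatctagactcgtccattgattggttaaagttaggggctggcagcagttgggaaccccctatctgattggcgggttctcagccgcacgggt
Mcm6: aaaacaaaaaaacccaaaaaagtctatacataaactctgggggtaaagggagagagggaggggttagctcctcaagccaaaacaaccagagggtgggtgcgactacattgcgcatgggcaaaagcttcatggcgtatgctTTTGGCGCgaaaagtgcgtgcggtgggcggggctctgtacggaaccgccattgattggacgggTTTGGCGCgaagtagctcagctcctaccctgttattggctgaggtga
These letters were present in 5 of the 18 replication genes with a promoter entry (27.8%), in 0 of 14 sarcomere genes and in 1.51% of all 27025 genes with an entry. The 5 genes were Mcm5, Mcm6, Mcm7, Cdc6 and Pola1, named because they hold the match.

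Genes of protein synthesis rose as well. Cytosolic ribosomal proteins were higher for 72 of 79 and lower for 0, with a median of 0.34, and 46 with quantile normalization. They took 3.84% to 4.03% of reads in Ednrb-/- and 3.18% to 3.37% in WT caudal libraries. Rps29, of the small subunit, was at 293, 342, 328 and 274 against 168, 169, 178 and 183 FPKM and rose by 0.82 ± 0.08 (adjusted p = 3.6e-06). Rps23 rose by 0.50 ± 0.05 and Rpl32, of the large subunit, by 0.44 ± 0.04. Many of these genes have processed pseudogenes with near-identical sequence, so single values are uncertain. Ribosome assembly factors rose for 18 of 19: Dkc1, which modifies ribosomal RNA, was at 45.5, 58, 44 and 49.5 against 31, 34, 34.1 and 29.7 FPKM, and Npm1 rose by 0.60 ± 0.07. Chaperones rose for 14 of 16, led by the mitochondrial pair Hspe1 (0.66 ± 0.07) and Hspd1 (0.64 ± 0.08).

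Energy and lipid metabolism shifted as well. Nuclear-encoded respiratory chain subunits rose for 23 of 27, by a median of 0.21, a count that was 14 with TPM scaling, 11 with quantile normalization and 14 without the libraries that held Xist. Cox6c, a subunit of cytochrome oxidase, was at 30.9, 33, 31.7 and 32.2 against 26.1, 26.1, 25.8 and 26.4 FPKM and rose by 0.28 ± 0.03 (adjusted p = 1.6e-05). The 13 subunits encoded in the mitochondrion did not follow, with 1 higher and 3 lower. Glycolysis genes rose for 14 of 18 and fell for 3. Ldha, lactate dehydrogenase, was at 309, 352, 266 and 334 against 159, 179, 188 and 147 FPKM and rose by 0.90 ± 0.08 (adjusted p = 3.6e-06). Pfkl, the liver phosphofructokinase, rose by 0.75, while its sister forms Pfkm (-0.13) and Pfkp (-0.88) fell. Hexokinase showed the same exchange, with Hk2 at 0.73 and Hk1 at -0.29. Sterol synthesis genes rose for 14 of 17, such as Msmo1 (0.54), which removes methyl groups from sterol intermediates. Of the serine and one-carbon genes 8 of 14 rose, with Psat1 at 0.65 and Mthfd2 at 0.60. The hypoxia list had 6 of 14 higher and 0 lower, with Pdk1 at 0.75 and Higd1a at 0.58, while Vegfa and Adm did not pass.

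Signalling genes were called in both directions. Retinoic acid genes rose for 3 of 10 and fell for 1. Aldh1a2, the main enzyme of retinoic acid synthesis in the embryo, was at 56.1, 72.2, 54.2 and 62 against 44.4, 33.8, 24.3 and 33.5 FPKM and rose by 0.86 ± 0.15 (adjusted p = 0.00043). Crabp2, which carries retinoic acid to its receptor, rose by 0.66 ± 0.10 and the receptor Rarb by 0.47 ± 0.08. Dhrs3, which turns retinal back to retinol, fell by 0.44 ± 0.09. Wnt targets rose for 5 of 10, including Tcf7 (0.47 ± 0.11), though 3 rose and 1 fell with TPM scaling. FGF feedback genes had 2 of 9 higher and 0 lower, which turned to 1 higher and 4 lower with TPM scaling. In the hedgehog list 5 of 13 rose, Foxa2 by 0.76 ± 0.14, and the co-receptor Boc fell by 0.44 ± 0.06. Immediate early genes fell for 4 of 9 and rose for 2. With quantile normalization 2 fell and 1 rose, as 1 fell and 1 rose without the libraries that held Xist, and 1 rose with TPM scaling or voom. Jun, a subunit of AP-1, fell by 0.55 ± 0.05 from 26.2, 24.3, 25.7 and 26 to 16.7, 16.4, 19.3 and 16.7 FPKM.

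Set against the trunk, the caudal difference was larger for many members of some groups. The term that tests the difference between the 2 regions was called for 1163 genes (6.76% of those tested), while 25.1% of genes were called between genotypes in the trunk. This count depends on single libraries: it was 673 without Ednrb-/- caudal replicate 2, 585 without replicate 4 and 670 without WT caudal replicate 1. Without the 7 libraries that held Xist it was 6. Of 79 ribosomal proteins 38 were called, and 13 rose in the trunk, where the median was 0.08. Rps29 was at 0.82 in caudal and -0.01 in trunk tissue (interaction 0.83, adjusted p = 0.0013). Of respiratory subunits 10 of 27 were called, and 1 rose in the trunk. The term was also called for 14 of 22 pan-neuronal and 11 of 17 sarcomere members; Robo3 fell by 2.22 in caudal and by 0.51 in trunk tissue (interaction adjusted p = 0.0025). Several lists had medians of opposite sign in the 2 regions. Motor neuron genes were at -0.29 in caudal tissue and 0.30 in the trunk, where 5 rose and 1 fell, and the term was called for 6 of 12. Myogenic regulators were at -0.27 and 0.28, with 6 higher and 5 lower in the trunk and the term called for 5 of 14. Hox paralogs 1 to 4 were at -0.10 and 0.37, and 9 of them rose in the trunk, with the term called for 6 of 12.

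Other groups held few or no such calls. None of the 23 replication, 12 early-stage heterochronic, 18 glycolysis or 17 sterol genes had a called interaction, and all 4 lists rose in the trunk too (20, 12, 12 and 12 members). Matrix genes fell for 20 of 23 in the trunk, with 1 interaction called. Tbx4 differed between regions by 2.15 (adjusted p = 0.019), with at most 0.346 FPKM on average in either trunk group. A few genes went in opposite ways, 64 in all with both genotype differences and the interaction called (0.372% of genes tested). Grm2, a glutamate receptor, was at -0.97 in caudal and 0.79 in trunk tissue (interaction -1.76, adjusted p = 0.00084). Ntng2, a netrin-like axon protein, was at -0.65 and 0.67, and Clstn2, a synaptic cadherin, at -0.87 and 0.36. Rspo3, a Wnt enhancer, and Foxa1, an endoderm factor, rose in caudal (0.33 and 0.45) and fell in trunk tissue (-0.30 and -0.48).

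**Figure D4:**
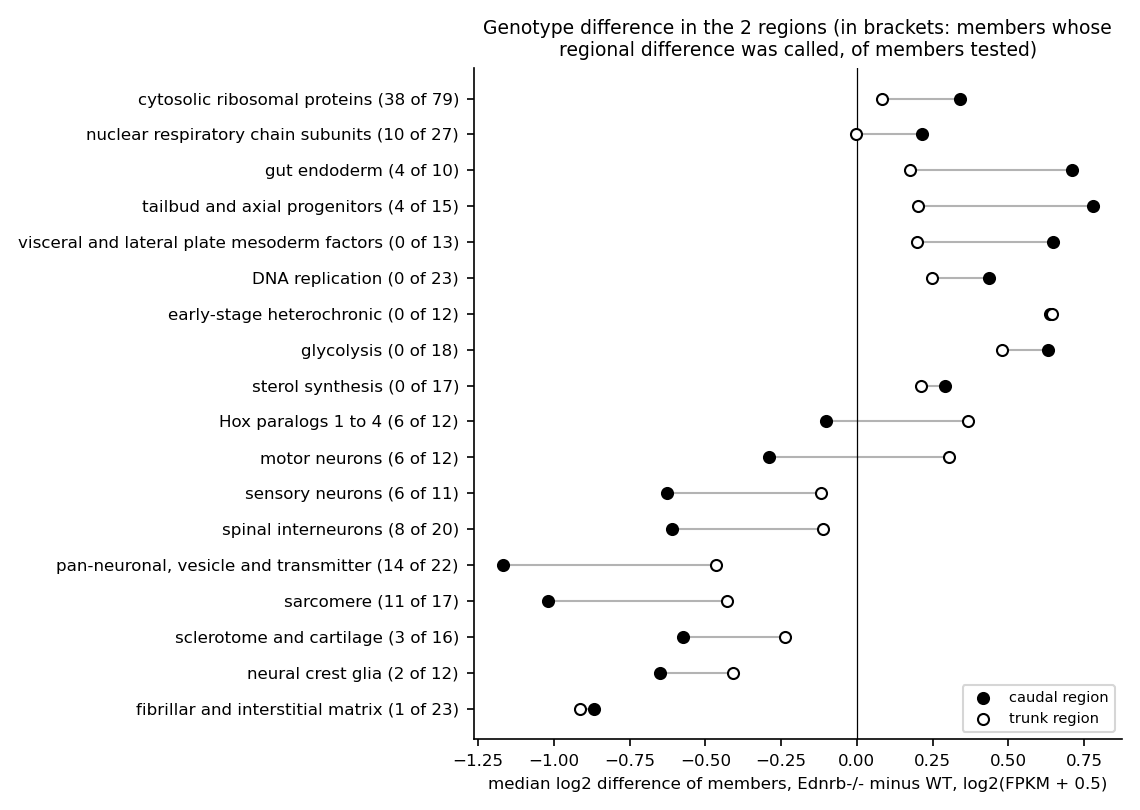
Median log2 difference (Ednrb-/- minus WT, log2(FPKM + 0.5)) of the tested members of 18 gene lists in the caudal (filled) and trunk (open) region, with the number of members whose regional difference was called. Pan-neuronal genes lie at -1.17 in caudal tissue and -0.47 in the trunk, while early-stage heterochronic genes lie at 0.64 in both.

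The 4 Ednrb-/- libraries were not equally far from WT. Among the 3732 genes that rose, replicate 2 was the highest Ednrb-/- library for 63.7% and replicate 4 for 22.1%. Among the 3432 that fell, replicate 2 was the lowest for 53.4% and replicate 4 for 25.9%. Replicates 1 and 3 were nearest to WT. The first principal component of the 8 caudal libraries, with 50.5% of the variance, ordered them the same way, at -35.1 and -29.0 for replicates 2 and 4, -18.4 and -15.3 for replicates 1 and 3, and 17.8 to 30.1 for WT. The ratio of the total behind the FPKM to the listed reads was also lowest in replicates 2 and 4 (0.949 and 0.972). It was 0.997 and 0.99 in replicates 1 and 3 and 1.01 to 1.03 in WT, so it also separated the genotypes. A lower total gives higher FPKM. With the listed reads as total 2671 genes were higher and 4352 lower. The part of this ratio in the order of the replicates was not tested. Without replicate 2 there were 3092 genes higher and 2920 lower, and without replicate 4 there were 3213 and 3005.

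**Figure D5:**
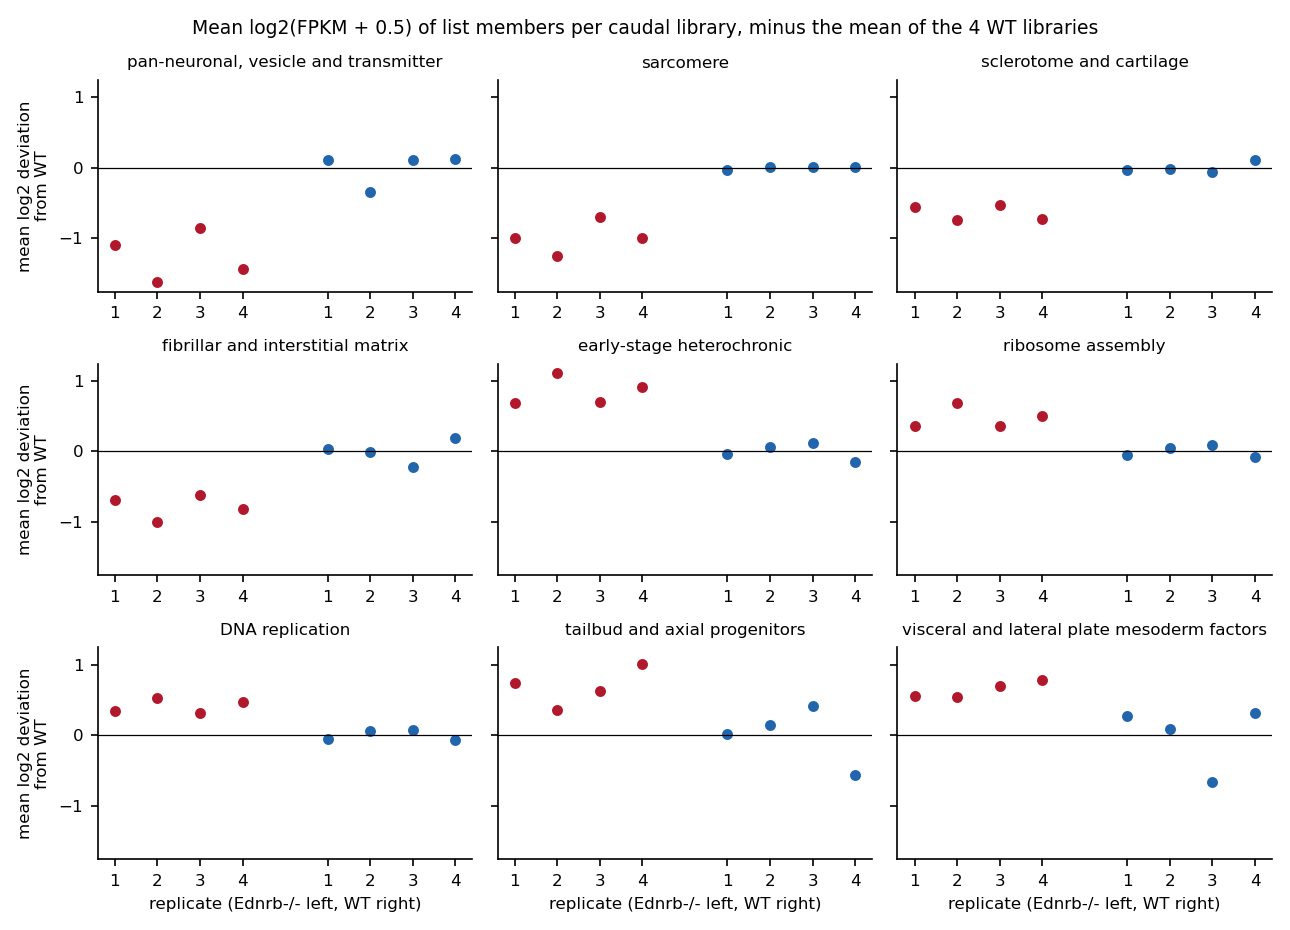
Mean log2(FPKM + 0.5) over the tested members of 9 gene lists in each caudal library, minus the mean of the 4 WT libraries, for Ednrb-/- (red, left) and WT (blue, right) replicates 1 to 4. Ednrb-/- replicates 2 and 4 lie farthest from WT for pan-neuronal, heterochronic and ribosome assembly genes, while WT replicate 4 is lowest for tail bud and WT replicate 3 for visceral mesoderm genes.

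The neighbourhood of Ednrb on chromosome 14 held several genes that fell. Of 16 genes tested within 2 Mb, Ednrb included, 7 fell and 0 rose. Over all genes tested 19.9% fell and 21.7% rose, and a count over so few genes is only a description. Kctd12 (ENSMUSG00000098557, chromosome 14 from 103214017 to 103220073 on the minus strand, mm39), an auxiliary subunit of GABA-B receptors, was at 15.5, 14.9, 16.4 and 14.4 against 29.5, 28.9, 24.7 and 31.5 FPKM and fell by 0.88 ± 0.08 (adjusted p = 3.1e-06). Pou4f1, a factor of sensory neurons, fell by 1.12 ± 0.16 from 12.1, 10.1, 14 and 12.1 to 5.84, 3.63, 7.84 and 4.44 FPKM. Mycbp2 (-0.28), a ubiquitin ligase of axons, fell slightly, while Obi1, Rbm26, Slain1 and Ndfip2 did not pass. Whether their position bears on these values was not tested.

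A few transcripts were near 0, or far lower, in 1 genotype. Gm47101 (ENSMUSG00000112073, chromosome 10 from 102271130 to 102271404 on the plus strand, mm39), a long noncoding RNA, was at 1.38, 1.34, 0.917 and 1.98 FPKM in Ednrb-/- and listed at 0 in all 4 WT caudal libraries. Gm49083, on chromosome 14 from 44042153 to 44049840, was at 0.774, 0.759, 0.916 and 1.01 FPKM against at most 0.0688 FPKM. Gm8730, a processed pseudogene on chromosome 8 from 103591477 to 103592430, was at 74.5, 87.5, 139 and 81.5 FPKM against 7.36, 7.08, 6.99 and 6.52 FPKM. These last 2 were chosen after their values were seen, and all 3 gave the same contrast in the trunk (1.98 ± 1, 0.905 ± 0.13 and 75.9 ± 19.6 FPKM in Ednrb-/-, against 0, 0.0245 ± 0.0215 and 7.43 ± 1.16 FPKM in WT). Downward, Gm3764 fell by 2.95 ± 0.25, from 6.2, 4.53, 6.49 and 6.96 to 0.536, 0.049, 0.908 and 0.115 FPKM, and Mir9-3hg, the host of a neural microRNA, by 1.76 ± 0.23.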

How the data were processed

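RNA from the caudal and trunk regions of Ednrb-/- and WT embryos was sequenced, with 4 libraries in each of 4 groups. The authors deposited 1 table of FPKM per gene, per the file headers with gene length and biotype. Per the submitters' processing notes, fastp, HISAT2 2.0.5, featureCounts 1.5.0-p3 and the mm39 build were used. The sources used here do not give the annotation release or the use of strand, so overlapping and antisense genes, and genes with near-identical copies, are uncertain. FPKM times gene length gave whole reads for 100% of values within 0.01, with 34883821 to 43444905 reads per library.

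Values were tested as log2(FPKM + 0.5) with limma 3.58.1 (R 4.3.3, variance trend on the mean) over all 16 libraries with a mean per group, which left 12 residual degrees of freedom, and p-values were adjusted by Benjamini and Hochberg over the 17205 genes tested. A gene was called at an adjusted p under 0.05. The interaction is the caudal minus the trunk genotype difference. Python 3.11.15, pandas 2.3.3, numpy 2.4.6 and matplotlib 3.10.9 made the summaries. The fit was tested on simulated data for the caudal comparison (13818 genes, 200 changed): 77% of 1.5-fold and 91% of 2-fold changes were recovered, and 2.89% of calls were false. In the data 41.6% of genes were called, whereas the simulation changed few genes. Its noise was drawn separately for each gene, without a shift shared by the libraries of a genotype. Its share of false calls therefore cannot be carried over to the counts above.

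Members and gene lists (54 lists and 8 marker lists, 934 symbols, of which 1 was not in the table) were chosen with earlier results of these data known, and lists are described by counts and medians only. The text draws its genes from a rule: Ednrb; the 15 largest rises and falls without overlap among autosomal protein-coding genes at 1 FPKM or more, leaving out Pmel, Dct, Lin28a and Hbb-bs, which earlier results had named; the 8 abundant genes with the largest gain and loss in FPKM; the 3 noncoding RNAs that rose and fell most; the 4 members with the smallest adjusted p in each list; genes within 2 Mb of Ednrb; and genes opposite in the trunk. Other members of a list named with a value, and those named as exceptions, were chosen after their values were seen. Alternatives changed the pseudocount, filter, scaling, weights, model, libraries and covariates. Promoters are from RefSeq on GRCm38.p6, another build than the table's, matched by symbol. Beyond the label of biological replicate nothing says that libraries came from separate embryos, so p-values measure the spread between these libraries.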

Additional observations from a re-analysis of the deposited data

Results flagged for a closer look

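The genotype difference of 69 genes named above was not the same in caudal and trunk tissue by the limma interaction term; each value below is the caudal minus the trunk log2 difference, so that a negative value is a larger fall or a smaller rise in caudal tissue. The term was called for 6.76% of all genes tested, with the dependence on single libraries given above. Neuronal genes gave -1.54 for Slc17a6, -1.11 for Stmn2, -0.74 for Gap43, -0.86 for Tubb3, -0.43 for Tuba1a and -1.57 for Vstm2l. Spinal interneuron genes differed by -1.71 for Robo3, -1.07 for Lhx1 and -1.01 for Tlx3. Outside that list, Otp was at -1.09 and Mir9-3hg at -1.36. Cholinergic, sensory and sympathetic genes were at -0.77 for Chat, -0.88 for Slc5a7, -0.80 for Ntrk3, -0.91 for Pou4f1 and -1.70 for Dbh. Axon guidance and synaptic genes stood at -0.92 for Dcc, -0.91 for Epha3, -0.42 for Plxna3, -0.71 for Plxna4, -0.30 for Sema3a and -0.59 for Slit2. Synaptic genes opposite in the trunk gave -1.76 for Grm2, -1.23 for Clstn2 and -1.32 for Ntng2. Muscle regulators differed by -1.07 for Myod1, -0.53 for Mef2c, -1.57 for Myf5 and -1.77 for Myf6. Sarcomere genes were at -0.44 for Actc1, -1.03 for Myh3, -1.11 for Tnnt1, -0.86 for Tnnc1 and -0.64 for Mybph. Skeletal, matrix, tendon, glial and pigment genes stood at -0.60 for Lama2, -0.86 for Pax1, -0.80 for Mkx, -0.29 for Erbb3 and -0.92 for Gpnmb. Hox genes gave -0.75 for Hoxb9, -1.02 for Hoxc12, -0.95 for Hoxc13 and 0.67 for Hoxd13. Hoxc12 was at 0 FPKM in every trunk library, and Hoxc13 and Hoxd13 averaged at most 0.129 FPKM in either trunk group. The term for these 3 genes therefore largely repeats the caudal difference. Posterior and ventral genes differed by 2.15 for Tbx4, 1.44 for Cdx4, 1.03 for Nkx1-2, 1.39 for Ripply1, 0.63 for Shh and 1.18 for Gdnf. Cdx4 averaged at most 0.0191 FPKM in either trunk group and Tbx4 was also low there, so the same holds for both. Epithelial and endothelial genes were at 0.76 for Cldn6, 0.60 for Epcam, 0.70 for Krt18, 0.93 for Foxa1 and 0.29 for Egfl7. Ribosomal protein genes stood at 0.83 for Rps29, 0.46 for Rps23, 0.39 for Rpl32 and 0.45 for Rplp1. Among other genes the values were -0.34 for Cdkn1c, 0.36 for Cox6c, -0.63 for Dhrs3, -1.93 for Gm3764, 0.43 for Higd1a and 0.41 for Hspe1. Further values were -0.60 for Jun, -1.05 for Nfia, 1.14 for Olig2, 0.63 for Rspo3 and -0.68 for Wnt4.

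In 18 of 388 groups of 4 caudal libraries, 4.64%, a library stood apart from the other 3 by Dixon's test, where chance gives about 1 in 20 groups. Clstn2 was highest in WT caudal replicate 1, at 8.99 FPKM, and Ddx3y was lowest in Ednrb-/- caudal replicate 4, at 15.6 FPKM. Ddx3y was lowest in WT caudal replicate 1, at 0.903 FPKM, and Emx2 was lowest in Ednrb-/- caudal replicate 1, at 7.11 FPKM. Gata3 was lowest in WT caudal replicate 3, at 0.742 FPKM, and Gpnmb was highest in Ednrb-/- caudal replicate 3, at 0.12 FPKM. Hapln1 was highest in Ednrb-/- caudal replicate 2, at 20.3 FPKM, and Jun was highest in Ednrb-/- caudal replicate 3, at 19.3 FPKM. Mitf was lowest in Ednrb-/- caudal replicate 2, at 0.607 FPKM, and Myl7 was highest in WT caudal replicate 3, at 0.927 FPKM. Ndfip2 was highest in WT caudal replicate 3, at 5.24 FPKM, and Pax8 was lowest in Ednrb-/- caudal replicate 2, at 0.369 FPKM. Pfkl was lowest in Ednrb-/- caudal replicate 3, at 31.6 FPKM, and Rps23 was lowest in WT caudal replicate 1, at 330 FPKM. Unc5a was lowest in WT caudal replicate 2, at 0.86 FPKM, and Wt1 was lowest in Ednrb-/- caudal replicate 1, at 2.97 FPKM. Xist was highest in Ednrb-/- caudal replicate 3, at 5.72 FPKM, and Xist was highest in WT caudal replicate 1, at 156 FPKM.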

How the results depend on the processing

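Of the 260 named genes 39 lost their call under at least 1 alternative. None changed sign while called in the main fit or the alternative, and sign changes of genes called in neither were not counted. Of 6217 gene and setting pairs 129 lost the call and 1 gained it. The count of genes called higher was 3732 and fell to 2219 with TPM scaling; the count called lower was 3432 and moved by less than 1.5 times with every scaling. At a pseudocount of 0.1 the genes past 2-fold were 148 higher and 747 lower, at a pseudocount of 1 they were 40 and 201, and with voom on whole reads 138 and 997, against 77 and 344. The interaction was called for 1163 genes, and for 571 with no filter. Leaving out every library with Xist at 5 FPKM or more, an alternative chosen after seeing the data, left 2180 genes higher, 2150 lower and 6 with an interaction, with 108 and 453 past 2-fold; it also removes 7 of 16 libraries. Leaving out 1 caudal library at a time gave 3092 to 3661 genes higher, 2920 to 3322 lower, 74 to 90 at least 2-fold higher, 280 to 410 at least 2-fold lower, and 585 to 1488 with an interaction. With listed reads as the total the split was 2671 higher and 4352 lower, and with voom 2630 and 4430.

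Replicate numbers are shared across groups, and deviations of libraries with the same number correlated by -0.0836 to 0.109. Such correlations cannot tell whether caudal and trunk libraries of 1 number came from the same embryo. Xist was at 0.251 FPKM in caudal and 135 in trunk Ednrb-/- replicate 2, and at 0.819 and 148 in WT replicate 4. Ddx3y went the other way, at 17.4 and 0.977 FPKM and at 18.3 and 0.122 FPKM, so as labelled these pairs did not match in sex. In WT replicate 1 Xist was high in both regions (156 and 145 FPKM), and the other pairs held Ddx3y in both. The replicate block gave 3743 genes higher, 3400 lower, 78 and 346 past 2-fold, and 1128 with an interaction. Low genes limit the rest: on the log2(FPKM + 0.5) scale a gene near 0.5 FPKM shows less than its full change.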

Other observations

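Nephric and gonadal genes divided within the list, with 5 of 16 higher and 6 lower. Wt1, a factor of the coelomic epithelium, gonad and kidney mesenchyme, was at 2.97, 4.13, 4.17 and 4.08 against 2.98, 1.37, 0.19 and 1.91 FPKM and rose by 1.25 ± 0.36 (limma adjusted p = 0.012). Emx2, of the urogenital ridge, was at 0.73. Pax8 (-0.84) and Pax2 (-0.40), of nephric tubules, fell, as did Wnt11 (-0.77), made at the ureteric tips, and Wnt4 (-0.57). The genes named here and in the smaller lists were chosen after their values were seen.

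Other lists gave these counts of higher and lower members. Primordial germ cell genes had 2 of 7 higher and 0 lower, BMP response genes 4 of 11 and 1, Notch genes 2 of 15 and 3, insulin-like growth factor genes 2 of 10 and 3, p53 targets 1 of 11 and 3, and interferon response genes 1 of 8 and 0. The germ cell count was 1 with TPM scaling, the listed reads as total or voom, without the libraries that held Xist, and in 6 of the 8 fits that left out 1 caudal library. BMP response rises numbered 2 with TPM scaling, the listed reads as total or voom, and without the libraries that held Xist. Without those libraries 0 Notch genes rose and 1 insulin-like growth factor gene fell. Id4, an inhibitor of bHLH factors, was at -0.88 while Id1 was at 0.21. In the endothelin list 1 of 5 rose and 2 fell. Ece1, an enzyme that activates endothelins, was at 15.8, 16.3, 15.5 and 16.4 against 13.4, 12.6, 12.2 and 12.3 FPKM and rose by 0.33 ± 0.07 (limma adjusted p = 0.0023). The ligand Edn3 was at 3.43, 2.49, 2.9 and 3 against 3.7, 3.52, 3.47 and 4.21 FPKM and fell by 0.29 ± 0.09 (limma adjusted p = 0.015). The other fall was Ednrb itself. With quantile normalization, without Ednrb-/- replicate 2 or WT replicate 4, and without the libraries that held Xist, 1 fell and Edn3 did not pass. The receptor Ednra (-0.19) and the ligand Edn1 (0.33) did not pass. Of 3 heart markers above the filter Myl7 rose by 1.10, with Nppa, Nppb, Myl2, Myl3 and Nkx2-5 under the filter, and the summed heart markers stood at 2.51 to 3.24 FPKM in Ednrb-/- and 1.83 to 2.40 FPKM in WT.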
